A study of Homo sapiens with 3 samples.

Results

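The 9 genes described here encode small proline-rich (SPRR) proteins and other building blocks of the cornified envelope, namely SPRR1A, SPRR1B, SPRR2B, SPRR3, IVL, TGM1, EVPL, PPL and CSTA. They were chosen by name, and all 10 probe sets annotated to them alone were taken, out of 22283 probe sets on the array. All 9 were above the floor of 28.3 signal units on at least 1 array, as were 7986 of the 11963 genes that a probe set named alone. The cells were CAL 27, a human line from a poorly differentiated squamous cell carcinoma of the tongue. One array held CAL 27 cells stably transfected with nm23-H1 as an EGFP fusion construct, one held cells stably transfected with nm23-H2 in the same EGFP vector, and one held cells stably transfected with the empty EGFP vector. nm23-H1 and nm23-H2 are the nucleoside diphosphate kinase genes NME1 and NME2, and EGFP is a fluorescent protein. The study's design text describes clones for nm23-H1 and for the empty vector, and it does not mention the nm23-H2 cells. All 3 lines therefore carry EGFP, none is untransfected, and the effect of a construct cannot be told apart from differences between separately selected transfectants. Each construct had 1 array, so replicates could check none of the values and no p-values are given.

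The cornified envelope is a layer of cross-linked protein that keratinocytes lay down under the plasma membrane as they differentiate. In the textbook account the plakins envoplakin and periplakin and the rod-shaped protein involucrin form the first scaffold. Transglutaminase 1 then joins glutamine and lysine side chains, and SPRR proteins act as cross-bridges between the other components. SPRR and involucrin genes are active in the upper layers of oral and other stratified mucosa, and SPRR expression is known to vary with stress and with the state of differentiation in squamous carcinomas.

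SPRR transcripts were much lower in nm23-H1 cells than in vector cells, and they were also lower in nm23-H1 cells than in nm23-H2 cells. SPRR1A, a cross-bridging precursor, had 215 signal units in nm23-H1 cells, 1884 in nm23-H2 cells and 2707 in vector cells by its main probe set. The nm23-H1 level was 12.6-fold below vector, or -3.65 on the log2 scale. Its second probe set, whose name ends in _x_at, gave 187 signal units in nm23-H1 cells, 1785 in nm23-H2 cells and 1749.5 in vector cells, a log2 difference of -3.22 for nm23-H1 against vector. Both probe sets put the nm23-H1 array far below the other two, and they disagreed on nm23-H2 against vector, with log2 differences of -0.52 and 0.03. SPRR1B, the closest relative of SPRR1A in this set, had 477 signal units in nm23-H1 cells, 3971 in nm23-H2 cells and 3177 in vector cells. Relative to vector it was 6.67-fold lower in nm23-H1 cells and 1.25-fold higher in nm23-H2 cells. The order of the nm23-H2 and vector arrays was thus opposite for SPRR1B and for the first probe set of SPRR1A, by amounts of the size of the probe error.

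SPRR3, the SPRR protein best known from the esophagus and oral mucosa, had 11.9 signal units in nm23-H1 cells, 137 in nm23-H2 cells and 284 in vector cells. The nm23-H1 value lay below the floor, so SPRR3 was at least 10.0-fold lower than in vector cells. SPRR3 was also the one SPRR gene whose nm23-H2 level was 2-fold or more below vector (2.07-fold). That difference was -0.72 on the log2 scale with the values as deposited and -0.97 where 16 signal units were added to every value and no floor used, both under 2-fold. SPRR2B, from the largest SPRR subfamily, had 24.6 signal units in nm23-H1 cells, 114 in nm23-H2 cells and 99.5 in vector cells. Its nm23-H1 level was at least 3.51-fold below vector, and the difference was -0.59 on the log2 scale with a floor at the 70th percentile (66.2 signal units). The SPRR genes are close copies of each other, 12 SPRR symbols lie together in the RefSeq annotation, and the SPRR2B and SPRR3 probe sets have names ending in _x_at and _s_at, which mark probes that may match more than one transcript. How much of a signal came from a related SPRR transcript is not known. SPRR2C, annotated as a transcribed pseudogene, was below the floor on all 3 arrays, with 9.95 signal units in nm23-H1 cells, 8.63 in nm23-H2 cells and 11.8 in vector cells.

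**Figure D1:**
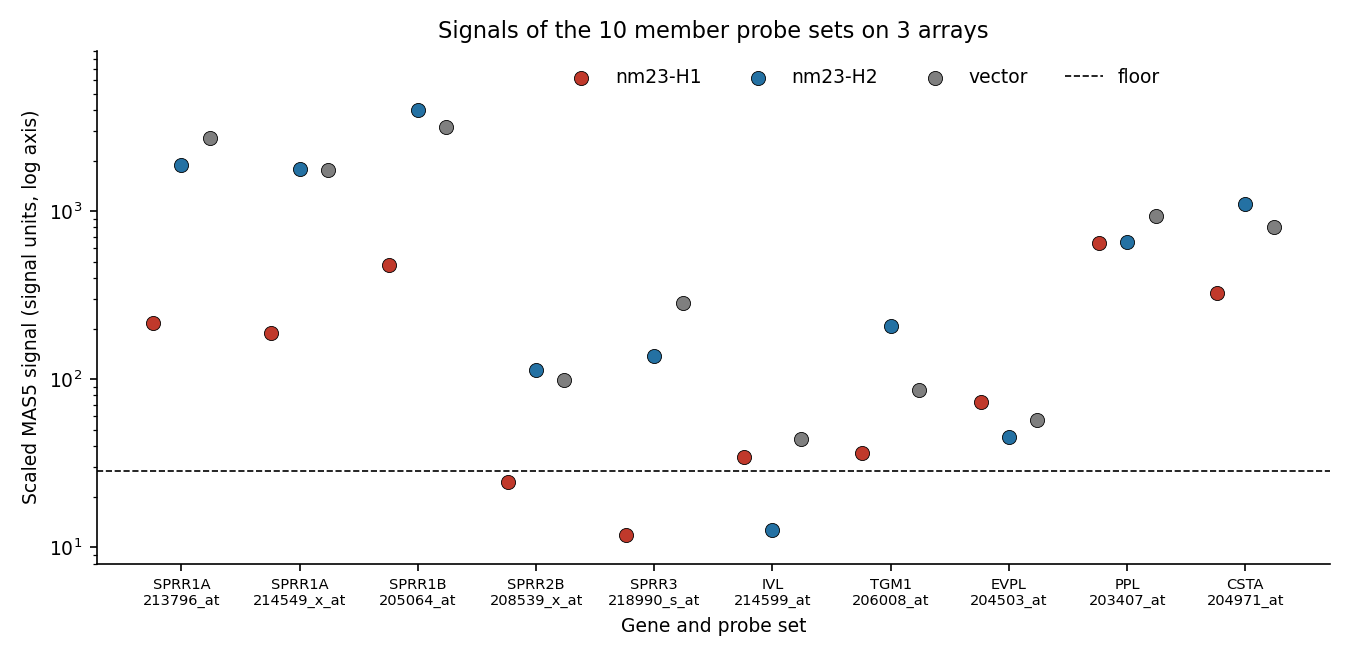
Scaled MAS5 signal (log axis) of the 10 probe sets of the 9 genes, with 1 point for each of the nm23-H1, nm23-H2 and vector arrays and a dashed line at the floor of 28.3 signal units. The nm23-H1 point is the lowest of the 3 for all 5 SPRR probe sets, for TGM1 and for CSTA. It is also the lowest for PPL, where it nearly equals the nm23-H2 point. The SPRR2B and SPRR3 points of nm23-H1 lie under the floor.

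The sequences before the starts of the SPRR genes and IVL are shown because 4 of these 5 neighbouring genes were lower together in nm23-H1 cells. Each is the stretch of 250 bases before an annotated start from RefSeq (GRCh38.p14), 5′ to 3′ on the gene's strand. For SPRR2B, on the minus strand, the stretch lies inside the annotated gene (153070226 to 153087799). It therefore precedes an internal start and not the outermost one, and what is said of the SPRR2B sequence holds for that start only. Capitals mark matches to TGANTCA, the AP-1 motif, searched on both strands, and, in the SPRR1A, SPRR3 and SPRR1B sequences, the longest run of bases that all 3 share. The positions are chr1:152983831-152984080 (plus strand) for SPRR1A, chr1:153001499-153001748 (plus) for SPRR3, chr1:153030953-153031202 (plus) for SPRR1B, chr1:153071612-153071861 (minus) for SPRR2B and chr1:152908296-152908545 (plus) for IVL.
SPRR1A: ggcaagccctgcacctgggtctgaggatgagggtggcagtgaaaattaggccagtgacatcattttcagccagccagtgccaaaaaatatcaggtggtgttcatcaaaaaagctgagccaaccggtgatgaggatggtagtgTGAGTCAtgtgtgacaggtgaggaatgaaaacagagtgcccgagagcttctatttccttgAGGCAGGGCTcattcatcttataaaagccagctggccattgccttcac
SPRR3: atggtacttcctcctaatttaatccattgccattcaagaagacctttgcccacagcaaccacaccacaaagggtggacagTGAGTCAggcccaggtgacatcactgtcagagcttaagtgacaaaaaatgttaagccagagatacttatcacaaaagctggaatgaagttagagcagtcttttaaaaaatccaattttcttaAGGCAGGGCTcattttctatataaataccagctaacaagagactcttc
SPRR1B: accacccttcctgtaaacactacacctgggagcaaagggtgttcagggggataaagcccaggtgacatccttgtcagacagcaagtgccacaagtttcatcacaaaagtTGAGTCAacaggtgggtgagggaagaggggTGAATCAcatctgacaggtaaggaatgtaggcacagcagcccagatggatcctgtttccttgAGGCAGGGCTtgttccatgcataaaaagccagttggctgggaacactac
SPRR2B: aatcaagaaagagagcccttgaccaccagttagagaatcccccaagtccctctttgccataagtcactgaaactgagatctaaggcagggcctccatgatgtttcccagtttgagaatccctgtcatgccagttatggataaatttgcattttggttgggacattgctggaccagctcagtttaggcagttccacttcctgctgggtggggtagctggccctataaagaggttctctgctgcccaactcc
IVL: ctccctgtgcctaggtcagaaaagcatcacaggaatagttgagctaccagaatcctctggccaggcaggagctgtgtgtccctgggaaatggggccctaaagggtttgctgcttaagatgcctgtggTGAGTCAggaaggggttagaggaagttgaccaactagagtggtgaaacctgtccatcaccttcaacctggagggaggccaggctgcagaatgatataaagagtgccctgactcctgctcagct
The AP-1 motif occurred in 4 of the 5 sequences, all but SPRR2B, and in 6.6% of the 27305 promoter sequences searched over the same length. SPRR1B held 2 matches, TGAGTCA and TGAATCA, and SPRR1A, SPRR3 and IVL held 1 match each, TGAGTCA in every case. The match began 108 bases before the start in SPRR1A, 170 in SPRR3 and 123 in IVL. The signals of IVL lay near or below the floor on every array, so its differences cannot be compared in size with those of the SPRR genes. A link between the motif and the differences was not tested. The run AGGCAGGGCT began 48 bases before the start in SPRR1A and SPRR3 and 49 bases in SPRR1B, and occurred on either strand in 0.311% of the promoters. It was found in these 3 sequences and not chosen beforehand. The letters TATAAA were present in 4 of the 5, not in SPRR1B, against 11.1% of all promoters, and the octamer ATTTGCAT was present in SPRR2B alone of the 5, against 1.66% of all promoters. AGGAA, the core of the ETS motif, was also searched and was present in 5 of the 5, against 56.8% of all promoters. Without gaps counted, the SPRR1A and SPRR1B sequences were identical at 74.1% of 232 aligned bases, SPRR1A and SPRR3 at 73.5% of 200, SPRR1A and IVL at 64.0% of 222, and SPRR1A and SPRR2B at 58.6% of 222. The gap bases left out numbered 36, 100, 56 and 56, in the same order. No unrelated promoters were aligned, so there is no baseline for these percentages. A match of letters is a description and not evidence of binding.

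TGM1 and CSTA were lower in nm23-H1 cells by smaller amounts. TGM1, the membrane-bound transglutaminase that cross-links the envelope, had 36.6 signal units in nm23-H1 cells, 208 in nm23-H2 cells and 85.8 in vector cells. The 3 arrays were spread widely, with TGM1 2.34-fold below vector in nm23-H1 cells, 2.42-fold above vector in nm23-H2 cells, and 5.67-fold lower in nm23-H1 than in nm23-H2 cells. TGM1 was the one gene of the 9 that lay 2-fold or more from vector on opposite sides in the 2 transfectants, while SPRR3 was below vector by that much in both. Its nm23-H1 signal was close to the floor, and the difference from vector was -0.37 with a floor at the 70th percentile and -0.95 where 16 was added and no floor used. TGM1 lies on chromosome 14 (24249114 to 24263177, GRCh38.p14), and the 50 measured genes nearest to it had a median of -0.13 for nm23-H1 against vector and -0.07 for nm23-H2 against vector. CSTA, cystatin A, a cysteine protease inhibitor that is itself cross-linked into the envelope, had 325 signal units in nm23-H1 cells, 1106 in nm23-H2 cells and 802 in vector cells. Relative to vector, CSTA was 2.47-fold lower in nm23-H1 cells and 1.38-fold higher in nm23-H2 cells. In nm23-H1 cells it lay 2-fold or more below vector in all 8 alternative settings of scaling, floor and probe set, with log2 differences between -1.30 and -1.19.

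The scaffold genes EVPL and PPL differed by less than 2-fold in all 3 comparisons, and IVL by less than 2-fold between nm23-H1 and vector cells, while its nm23-H2 level is known only as a bound. IVL, involucrin, had 34.4 signal units in nm23-H1 cells, 12.7 in nm23-H2 cells and 43.8 in vector cells. Its nm23-H1 and vector values were just above the floor and its nm23-H2 value was below it, so IVL was 1.28-fold below vector in nm23-H1 cells and at least 1.55-fold below vector in nm23-H2 cells. The nm23-H2 difference was -1.79 on the log2 scale when the 25th percentile served as floor, and -1.06 where 16 was added and no floor used. EVPL, the plakin envoplakin, had 73.3 signal units in nm23-H1 cells, 45.3 in nm23-H2 cells and 56.9 in vector cells. EVPL was the one gene of the 9 that was higher with nm23-H1 than with vector, by 1.29-fold. EVPL lies on chromosome 17 (76006845 to 76027306), PPL on chromosome 16 (4882507 to 4937148) and CSTA on chromosome 3 (122325248 to 122341969), so the genes outside chromosome 1 share no neighbourhood. PPL, periplakin, the partner of envoplakin, had 649 signal units in nm23-H1 cells, 654 in nm23-H2 cells and 932 in vector cells. Both transfectants were below vector by nearly the same amount, 1.44-fold for nm23-H1 and 1.43-fold for nm23-H2.

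Counted over the 9 genes, 6 lay 2-fold or more below vector in nm23-H1 cells and 0 lay as far above it, while 1.73% of the 7986 measured genes lay that far below and 2.14% that far above. The 6 were SPRR1A, SPRR1B, SPRR2B, SPRR3, TGM1 and CSTA. The median log2 difference of the 9 genes was -1.30, against 0 for all measured genes, and 8 of the 9 were below 0, against 47.7% of all. From the largest decrease on, SPRR1A ranked 2, SPRR3 3, SPRR1B 5, SPRR2B 16, CSTA 58 and TGM1 67 among the 7986 genes, the ranks of SPRR3 and SPRR2B resting on bounds. These genes were singled out with the large SPRR differences already known, so the counts describe them and are no independent evidence. Error was estimated from how far probe sets for one gene disagreed (the probe error), an SD of 0.325 on the log2 scale for nm23-H1 against vector over 1758 genes. It does not cover differences between cultures, transfectants or hybridisations. By this measure IVL and EVPL differed from vector in nm23-H1 cells by close to 1 SD, and PPL by less than 2 SD. At 1.5-fold the counts were again 6 below and 0 above, against 7.54% and 8.63% of measured genes.

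In nm23-H2 cells 1 of the 9 genes, SPRR3, lay 2-fold or more below vector and 1, TGM1, lay 2-fold or more above it, against 3.61% and 3.59% of all measured genes. At 1.5-fold 2 genes lay below (SPRR3 and IVL) and 1 above, against 14.3% and 10.6% of measured genes. The median of the 9 genes was -0.33, against -0.055 for all genes, and 5 were below 0 and 4 above. The probe error was 0.349, so the differences of SPRR1A (-0.52), SPRR1B (0.32), SPRR2B (0.20), EVPL (-0.33), PPL (-0.51) and CSTA (0.46) were all under 2 SD of it. In nm23-H2 cells the enzyme TGM1 (1.28) was above vector while the SPRR genes, which encode its substrates, lay between -1.05 and 0.32, whereas in nm23-H1 cells TGM1 and all 4 SPRR genes were below vector. The comparisons with vector share the vector array, so a high or low value there enters both.

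Setting nm23-H1 cells against nm23-H2 cells needs no vector array, but it uses the same single nm23-H1 array as nm23-H1 against vector. A high or low value on that array enters both, so this comparison is no independent check. The same 6 genes were lower in nm23-H1 cells by 2-fold or more and 0 were higher by as much, against 3.81% and 3.76% of all measured genes. At 1.5-fold the counts were 6 lower and 1 higher (EVPL), against 10.6% and 16.3%. SPRR1A was 8.75-fold lower, SPRR1B 8.33-fold, TGM1 5.67-fold, SPRR3 at least 4.85-fold, SPRR2B at least 4.03-fold and CSTA 3.41-fold. TGM1 was here among the larger differences, because the 2 transfectants lay on opposite sides of vector. PPL was equal on both arrays to within 1.01-fold. EVPL was 1.62-fold higher in nm23-H1 cells, and IVL at least 1.21-fold higher. The median of the 9 was -2.01, which is the bound of SPRR2B, against 0.077 for all genes, and the probe error was 0.383.

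**Figure D2:**
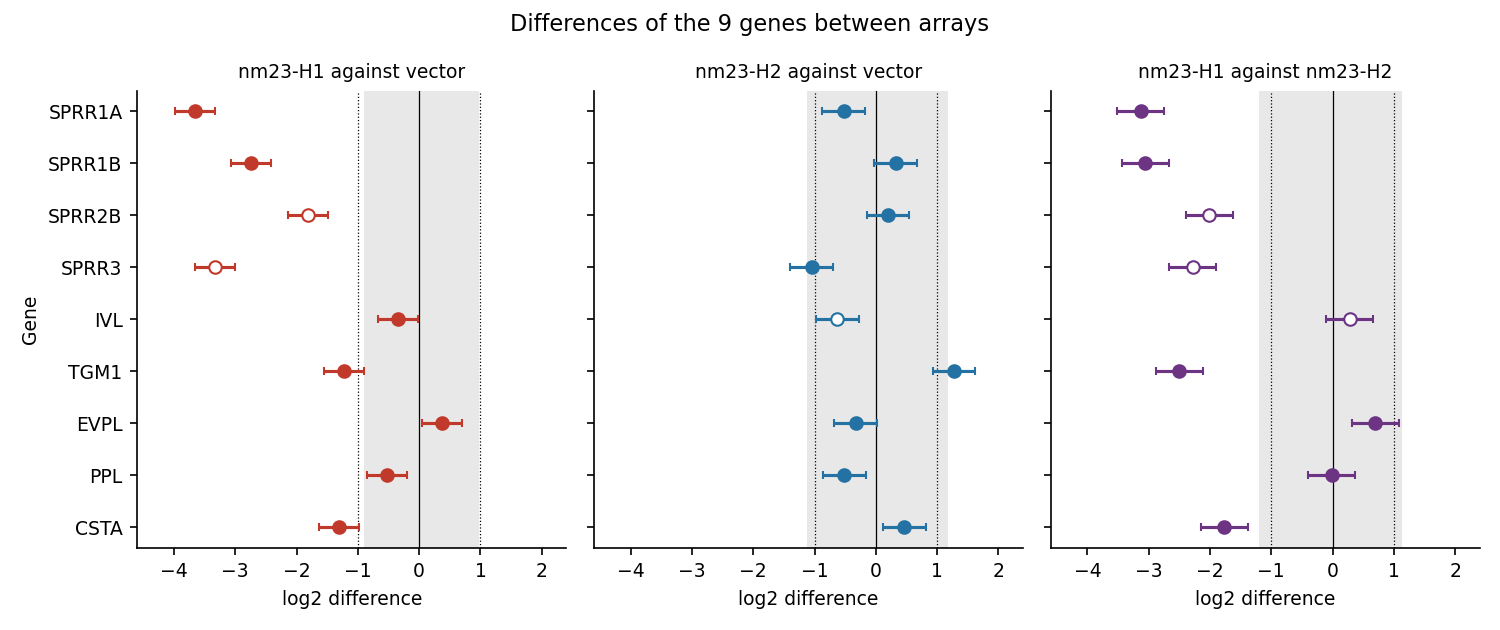
Log2 differences of the 9 genes in the 3 comparisons, with bars of 1 SD of the probe error (0.325, 0.349 and 0.383), hollow points where 1 array was at the floor, dotted lines at 2-fold and a grey band holding the central 95% of measured genes. In both panels with nm23-H1 on top, the SPRR genes, TGM1 and CSTA lie left of the band while EVPL and PPL lie inside it; with nm23-H2 against vector TGM1 (1.28) lies right of it. The hollow IVL points inside the band in the panels with nm23-H2 are bounds.

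The SPRR genes and IVL lie in the epidermal differentiation complex on chromosome 1, a run of genes for envelope proteins and S100 calcium-binding proteins. From S100A10 to S100A1 it spans 1.65 Mb (151982915 to 153632039, GRCh38.p14) and holds 93 annotated genes, of which 29 had a probe set of their own and 19 were measured. IVL is at 152908546 to 152911886, SPRR1A at 152984081 to 152985814, SPRR3 at 153001749 to 153003856, SPRR1B at 153031203 to 153032900 and SPRR2B at 153070226 to 153087799. IVL ends 72.2 kb before SPRR1A begins, and SPRR1A, SPRR3 and SPRR1B lie within 48.8 kb. In nm23-H1 cells 1.73% of all measured genes on the array lay 2-fold or more below vector and 2.14% as far above it. In the complex 8 of the 19 measured genes lay that far below and 0 that far above, the 4 SPRR genes among them. The other 4 were the S100 genes S100A8 (-3.06), S100A9 (-2.51), S100A7 (-2.04, a bound) and S100A12 (-1.44, a bound). A second probe set of S100A8, at the floor on both arrays, gave no difference. All 8 lay in the 477.0 kb from SPRR1A to S100A7, where 9 genes were measured, and 0 of the 10 measured genes elsewhere in the complex was at least 2-fold lower. That stretch was marked out after the values had been seen. PGLYRP4, the gene for a peptidoglycan recognition protein, was the exception inside it, with 93.1 signal units in nm23-H1 cells, 93.8 in nm23-H2 cells and 79.0 in vector cells. The count of 8 became 5 with a floor at the 70th percentile and also 5 with only probe sets whose names end in plain _at.

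Genes flanking the complex differed less. The 70 measured genes within 2 Mb on either side had a median of 0.088 for nm23-H1 against vector. Of these, 1 was at least 2-fold lower, against 1.73% of all measured genes. In nm23-H2 cells S100A9 (1.95) and S100A8 (1.53) of the complex were at least 2-fold higher than in vector cells and SPRR3 (-1.05) at least 2-fold lower. Over all measured genes 3.59% lay as far above vector and 3.61% as far below it. The count of 1 lower gene became 0 with the values as deposited and 3 when the 25th percentile served as floor. The count of 2 higher genes became 3 with the values as deposited. Within the complex the SPRR genes were thus near or below the vector level in nm23-H2 cells where S100A8 and S100A9 were above it. The envelope genes LORICRIN and FLG, which mark the cornified epidermis, were below the floor on all 3 arrays, at 2.77, 3.79 and 8.19 signal units for LORICRIN and 7.49, 6.43 and 7.75 for FLG in nm23-H1, nm23-H2 and vector cells.

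**Figure D3:**
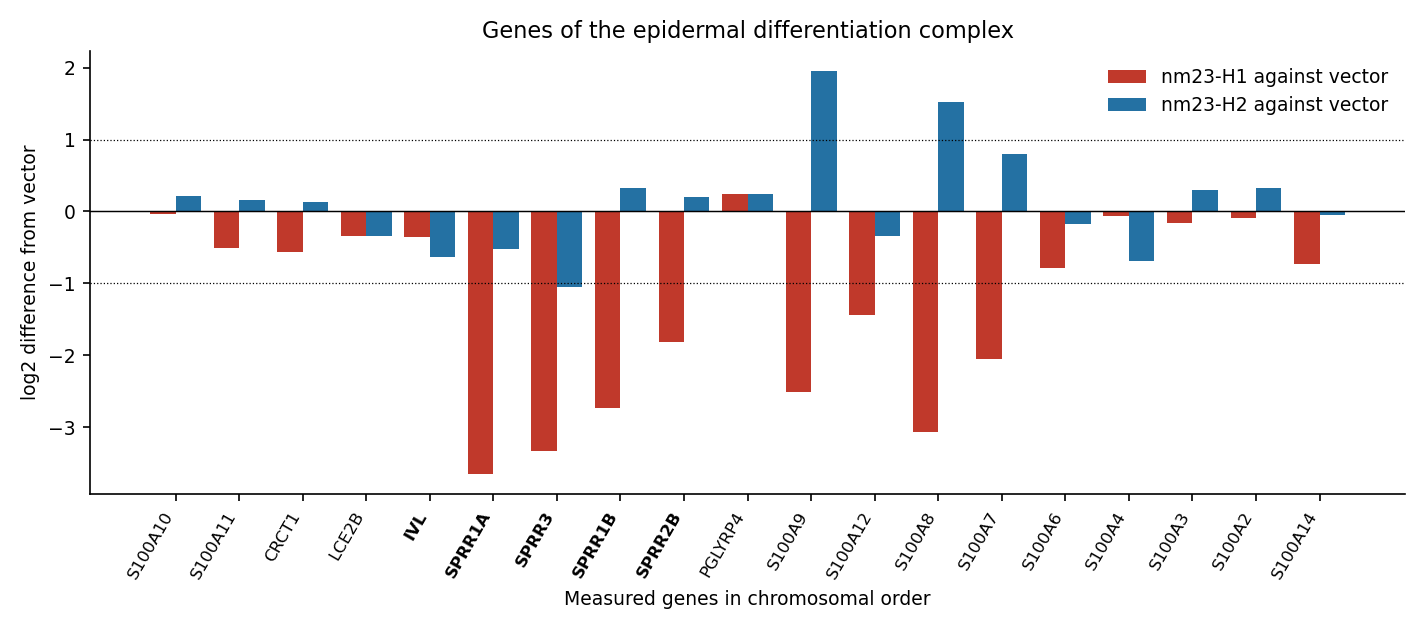
Log2 differences from vector of the 19 measured genes of the epidermal differentiation complex in chromosomal order, with bars for nm23-H1 and nm23-H2, the described genes in bold and dotted lines at 2-fold. The bars of nm23-H1 reach below -1 in 8 genes, all from SPRR1A (-3.65) to S100A7 (-2.04), and PGLYRP4 (0.24) is the 1 gene of that stretch that does not.

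Outside the 9 genes, the profiles most like the SPRR genes over the 3 arrays were found by the distance between log2 values centred on each gene's mean. The median SPRR profile was -1.90 in nm23-H1 cells, 0.80 in nm23-H2 cells and 1.10 in vector cells. Among 5024 genes whose brightest array reached the 70th percentile, the 6 closest were SBF1 (distance 0.583), S100A7 (0.841), TSFM (0.848), TTC1 (0.947), SMTN (0.949) and ADSL (1.01). The SPRR genes themselves lay between 0.439 and 0.843 from that profile, CSTA at 1.20, TGM1 at 1.37, PPL at 2.11, IVL at 2.31 and EVPL at 2.76. The likeness of all 6 rested on 1 probe set each. S100A7 and TTC1 had no other probe set, and the others of TSFM were below the floor on every array. The nm23-H1 signals of S100A7 (18.6), TSFM (16.1) and TTC1 (25.6) were below the floor, so their distances rest on bounds. Other probe sets gave differences from vector in nm23-H1 cells of -0.80 and -0.17 for SBF1, of -0.33 for SMTN, and of -0.65 for ADSL, where the probe set used gave -1.61. With 3 arrays many genes can share a profile.

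Related genes were described from lists drawn up from general knowledge, with results of these arrays already known. Of 21 measured genes among other envelope and cornification genes, 1 lay 2-fold or more below vector in nm23-H1 cells and 0 lay as far above it, near the shares of 1.73% and 2.14% over all measured genes. The median of the 21 was -0.34, with 15 below 0. That gene was PI3, elafin, a protease inhibitor that is also a transglutaminase substrate, with 104 signal units in nm23-H1 cells, 2086 in nm23-H2 cells and 1420 in vector cells (-3.77). Its second probe set gave -3.28. The count of 1 became 6 when the 25th percentile served as floor and 4 where 16 was added and no floor used. The count of 0 above vector became 1 with the values as deposited (CST6, 1.01). In nm23-H2 cells 2 of the 21 genes lay 2-fold or more below vector, the suprabasal keratin genes KRT1 (100.2 against 288 signal units) and KRT10 (129 against 277), against 3.61% of all measured genes, and the median was 0.12. KRT10 was at -0.77 with the values as deposited, where the count was 1, and the count was 4 when the 25th percentile served as floor. The 2.88-fold lower KRT1 and 2.14-fold lower KRT10 stand beside SPRR1B and CSTA, which were above vector in nm23-H2 cells by 1.25-fold and 1.38-fold. KRT1 (-0.55) and KRT10 (-0.58) were below vector in nm23-H1 cells too. The other KRT10 probe sets gave -0.69 and -1.05 for nm23-H1 and -0.86 and -1.255 for nm23-H2.

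Close relatives of TGM1, the plakins and CSTA were also counted at 2-fold from vector. Of all measured genes, 1.73% lay that far below and 2.14% that far above in nm23-H1 cells. In nm23-H2 cells the shares were 3.61% and 3.59%. The lists are short, so the low counts do not set these families apart from all genes. The 3 measured transglutaminase genes other than TGM1 included none at 2-fold from vector on either array. TGM5 was at 0.95 for nm23-H2, and passed 2-fold with the values as deposited (1.28) and with quantile normalization (1.06). Of the 5 plakin genes of the list, DST was 2.25-fold below vector in nm23-H1 cells and MACF1 2.19-fold above vector in nm23-H2 cells. By the mean of all probe sets these differences were -0.15 for DST and 0.74 for MACF1. Several DST probe sets were below the floor on every array and enter that mean as 0. The other DST probe sets above the floor on at least 1 array gave -0.15 and 0.11. The other MACF1 probe sets ran from 0.09 to 1.34 for nm23-H2 against vector. DSP, desmoplakin, had 566 signal units in nm23-H1 cells, 789.6 in nm23-H2 cells and 695 in vector cells. Of 11 cystatins and cathepsins, CTSV, a target of cystatin inhibition, was the 1 gene that differed by 2-fold or more, 2.13-fold below vector in nm23-H1 cells. It was under 2-fold with the values as deposited and where 16 was added and no floor used. CST6 was above vector, at 0.90 in nm23-H1 cells and 0.70 in nm23-H2 cells, with a vector signal near the floor (31.2). With the values as deposited CST6 passed 2-fold in both (1.01 and 1.03). CTSC, at 0.89 in nm23-H2 cells, passed it with those values as well (1.22). CSTB, the close relative of CSTA, had 1239 signal units in nm23-H1 cells, 1345 in nm23-H2 cells and 1386 in vector cells, a log2 difference of -0.16 for nm23-H1 against vector where CSTA was at -1.30.

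Of 26 measured regulators of keratinocyte differentiation, 0 differed from vector by 2-fold or more in nm23-H1 cells, against 1.73% of all measured genes that far below and 2.14% that far above. In nm23-H2 cells 4 lay 2-fold or more above vector and 0 as far below it, against 3.59% and 3.61% of all measured genes. FOSL1, an AP-1 subunit, had 240.4 signal units in nm23-H1 cells, 2291 in nm23-H2 cells and 477 in vector cells. KLF4, a transcription factor of suprabasal keratinocytes, had 74.7 signal units in nm23-H1 cells, 259 in nm23-H2 cells and 148 in vector cells. FOSL1 and KLF4 were each 1.98-fold below vector in nm23-H1 cells, and KLF4 passed 2-fold with quantile normalization. VDR lay on the other side, 1.74-fold above vector in nm23-H1 cells (120 against 69.0 signal units). Its other probe sets gave between 0 and 0.66. Another probe set of NOTCH2 gave 1.03 for nm23-H1 against vector, a bound, where the one counted gave 0.35. HOPX, at 5.33 signal units in nm23-H1 cells and 34.3 in vector cells, was at least 1.21-fold below vector, a bound, and passed 2-fold when the 25th percentile served as floor and where 16 was added and no floor used. ETS2 passed it with plain _at probe sets. A second probe set of KLF4, near the floor, gave 0.09. The 4 higher with nm23-H2 were FOSL1 (4.80-fold), CEBPB (3.01-fold), PPARD (2.33-fold) and ETS2 (2.12-fold). By the mean of all probe sets, PPARD was at 0.84, and 2 of the 4 were left at 2-fold. That mean includes a PPARD probe set below the floor on every array, which enters as 0. Another PPARD probe set, below the floor in vector cells, gave 1.29 as a bound, where the one counted gave 1.22.

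**Figure D4:**
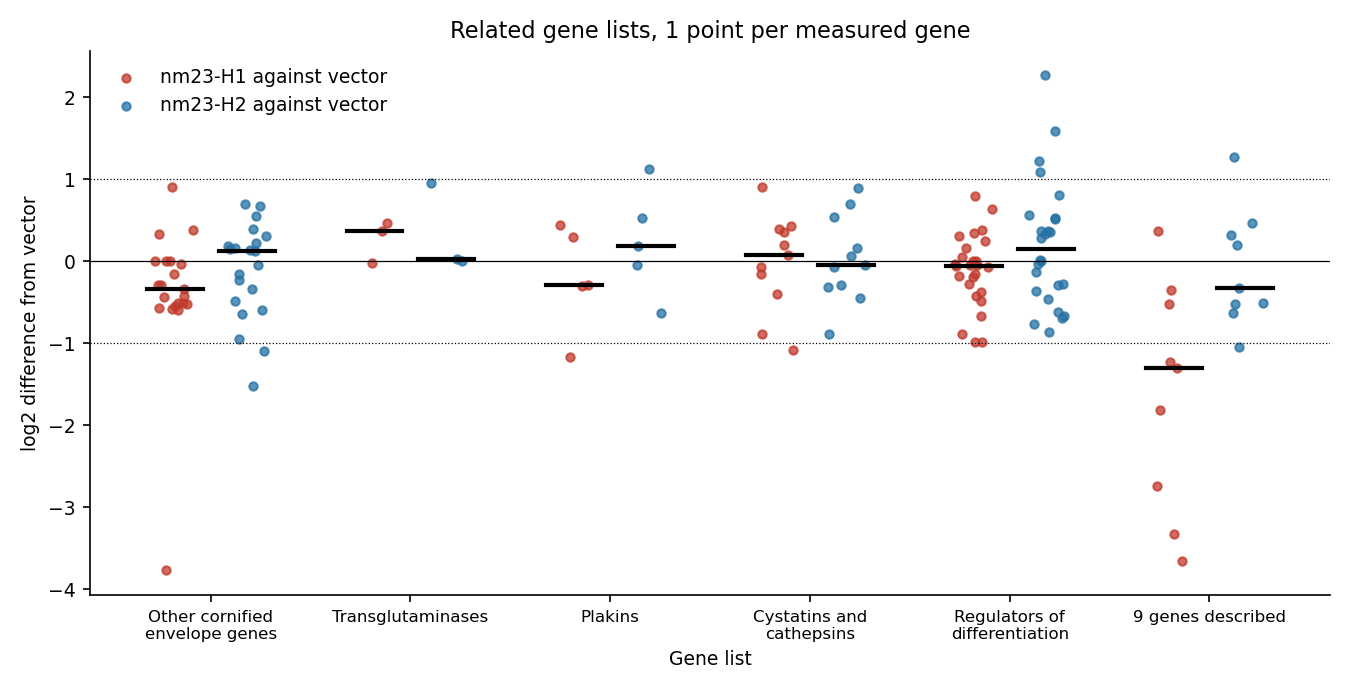
Log2 differences from vector of measured genes in 5 related lists and in the 9 genes described, with 1 point per gene for nm23-H1 and nm23-H2, a black line at each median and dotted lines at 2-fold. The 9 genes have a median of -1.30 with nm23-H1, the other envelope genes one of -0.34 with PI3 (-3.77) far below the rest, and the regulators one of -0.05 with nm23-H1 and 0.15 with nm23-H2.

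Markers of squamous epithelial cells were present on all 3 arrays. Of 10 marker genes, 7 were named by a probe set alone and all 7 were measured. Their summed signal was 25299 in nm23-H1 cells, 39885 in nm23-H2 cells and 29545 in vector cells, and by the probe sets counted none lay 2-fold or more from vector. Of the other probe sets of SFN, the gene for stratifin, 1 gave 1048 signal units in nm23-H1 cells, 3627 in nm23-H2 cells and 1430 in vector cells, a log2 difference of 1.34 for nm23-H2 against vector, where the one counted gave 0.63. KRT14, a basal keratin, had 8932 signal units in nm23-H1 cells, 12889 in nm23-H2 cells and 9823 in vector cells. Markers of fibroblasts, leukocytes, endothelium and melanocytes were above the floor for 1 of 6, 3 of 5, 1 of 4 and 2 of 3 genes. CD53 was the brightest of these, at 98.7 signal units in nm23-H1 cells, 72.3 in nm23-H2 cells and 90.1 in vector cells. In a bulk sample, fewer cells making SPRR transcripts and less transcript in each cell cannot be told apart.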

How the data were processed

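RNA from 3 CAL 27 transfectants was measured on 1 Affymetrix array each, from 15 µg of fragmented cRNA. The deposited unit is a linear intensity for each probe set. Per the submitters' processing notes the authors made them with MAS5, and neither its version, a scaling target nor detection calls are given in the sources used here. The deposited median was 29.6 with nm23-H1, 29.0 with nm23-H2 and 26.5 with vector, and the scaling factors were 1.03, 0.881 and 1.11, chosen so that the means between the 2nd and 98th percentiles matched. The pooled median, 28.3, served as a floor for dimmer values before log2 was taken, which makes a fold with a floored array a bound. In counts 1 probe set stood for a gene, the brightest of those without an _x_at name where any existed. Symbols came from the platform annotation, updated through gene IDs to RefSeq of GRCh38.p14; 19071 probe sets had 1 symbol, 1043 several and 2169 none.

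A difference was counted at 2-fold. No test across samples was possible with 1 array per group. The number of arrays limits the precision. Probe error compares a gene's brightest 2 probe sets: it is the SD, over genes, of the gap in their log2 differences, scaled down by the square root of 2. The 9 genes and the gene lists were chosen with earlier results of these data known. Named genes were the 9, up to 4 per list with the largest differences, the 6 genes closest to the SPRR profile and the measured genes of the epidermal differentiation complex. CSTB, KRT14, SFN, HOPX and NOTCH2 were named outside this rule after their values were seen. LORICRIN, FLG and SPRR2C, all below the floor, and the marker CD53 were also outside it. Not every gene that the rule allowed was named. Promoters were found for 5 of the 9 genes. The alternatives were 3 scalings, 3 treatments of dim values, 2 rules for probe sets and a 1.5-fold threshold. The steps were tested on simulated data. The software was numpy 2.4.6, scipy 1.17.1, biopython 1.88, pandas 2.3.3 and matplotlib 3.10.9 under Python 3.11.15.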

Additional observations from a re-analysis of the deposited data

How the results depend on the processing

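The 6 genes lying 2-fold or more below vector in nm23-H1 cells numbered between 4 and 6 under all 9 alternatives, and 0 were higher under any. SPRR1A, SPRR1B and CSTA were among them every time. SPRR2B and SPRR3 had no value when only probe sets ending in plain _at were used. Against nm23-H2 the count also stayed between 4 and 6. The count of 1 gene lying as far below vector in nm23-H2 cells became 0 with the values as deposited, 0 with plain _at probe sets, 2 when the 25th percentile served as floor and 2 at 1.5-fold. Where 16 was added and no floor used the count was still 1, but the gene was IVL in place of SPRR3. The count of 0 higher with nm23-H1 than with nm23-H2 became 1 when the 25th percentile served as floor (IVL) and 1 at 1.5-fold (EVPL). Of 207 alternative differences of single genes, 14 moved by more than the probe error, all through the floor or the added constant, and 0 of the 2-fold differences changed sign. SPRR3 ran from -4.58 to -2.10 for nm23-H1 against vector, and TGM1 from -1.30 to -0.37.

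With the values as deposited the median of all genes was 0.174 for nm23-H2 against vector, against -0.055 after scaling, and 7.98% of genes lay 2-fold or more above vector and 1.35% as far below it, against 3.59% and 3.61%. For nm23-H1 against vector these shares were 2.63% and 1.17%, against 2.14% and 1.73%. With a common median they were 3.06% and 4.77% for nm23-H2 against vector. For nm23-H1 against nm23-H2, where 3.76% were higher and 3.81% lower, they were 2.15% and 6.28% as deposited (median -0.071, against 0.077 after scaling) and 5.04% and 3.19% with a common median. Alternatives for the related lists and named genes were added after the data were seen. Of 216 such counts 52 moved by over 1.5 times, and of 334 differences 28 moved by more than the probe error, none of the 2-fold ones changing sign. No paired analysis was possible because each group has 1 array. Signals near the floor limit what can be said of IVL, TGM1, SPRR2B and SPRR3.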
